A study of Mus musculus with 6 samples.

Results

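The genes described here were 9 receptors, bridging ligands and adaptors of efferocytosis: Mertk, Axl, Tyro3, Gas6, Pros1, Mfge8, Lrp1, Cd300lf and Elmo1. They were chosen by name, out of 56980 genes in the expression table. All 9 were measured, at 2.68 TPM or more in every library. TPM is a transcript level corrected for gene length and scaled to the same total in each library, so levels of different genes can be compared on it.

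Tumor-associated macrophages (TAMs) were sorted from ID8 tumors, a mouse ovarian cancer model, as live CD45+CD11b+Ly6G-F4/80+ cells, and their RNA was sequenced. The 3 WT libraries came from C57BL/6 mice and the 3 C5aR-/- libraries from C5aR knockout mice on the C57BL/6 background, which lack the receptor for the complement fragment C5a. All hosts were female, were 6 to 8 weeks old, and received the same ID8 cells by intraperitoneal injection, with tumors taken 2 months later. The deletion affects every cell type of the host and not the macrophages alone. The comparison asks how TAMs that lack C5aR differ from WT TAMs. Whether each library came from 1 mouse was not given in the labels, and the study's legends name more mice per group than the libraries analysed here, so n = 3 counts libraries and p-values measure the spread between them.

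Efferocytosis is the uptake of dying cells by phagocytes. Dying cells expose phosphatidylserine, which is bound by the soluble proteins Gas6 and protein S (Pros1) and, through them, by the receptor tyrosine kinases Tyro3, Axl and Mertk. Mfge8 bridges phosphatidylserine to integrins instead, Lrp1 is a scavenger receptor that takes up calreticulin-bearing cells, Cd300lf binds phosphatidylserine directly, and Elmo1 works with Dock proteins to activate Rac1 and reshape actin around the corpse. In tissue macrophages Mertk is a defining surface receptor, and clearance of dying cells through it is known for dampening inflammatory cytokine production.

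The promoter windows of 3 of the receptors are shown because their transcripts behaved differently from library to library: Mertk followed the macrophage genes, Axl hardly varied among WT TAMs, and Cd300lf lay between. Each line gives the 250 bases before the annotated start, 5′ to 3′ on the gene's strand, from RefSeq (GRCm38.p6). Capitals mark GGGCGG, the GC box bound by Sp1-type factors, or GAGGAA, the core bound by the myeloid factor PU.1, on either strand, so that they can also read CCGCCC or TTCCTC.
Mertk: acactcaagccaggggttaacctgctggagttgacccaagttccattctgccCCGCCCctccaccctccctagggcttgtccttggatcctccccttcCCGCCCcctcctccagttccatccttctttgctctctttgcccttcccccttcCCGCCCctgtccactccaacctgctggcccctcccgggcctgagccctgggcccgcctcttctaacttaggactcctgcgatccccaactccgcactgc
Axl: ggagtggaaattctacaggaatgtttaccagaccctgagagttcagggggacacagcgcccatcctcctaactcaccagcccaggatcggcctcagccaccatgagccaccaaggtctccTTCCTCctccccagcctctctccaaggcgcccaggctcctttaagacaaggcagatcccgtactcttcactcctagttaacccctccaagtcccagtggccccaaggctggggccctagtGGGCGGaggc
Cd300lf: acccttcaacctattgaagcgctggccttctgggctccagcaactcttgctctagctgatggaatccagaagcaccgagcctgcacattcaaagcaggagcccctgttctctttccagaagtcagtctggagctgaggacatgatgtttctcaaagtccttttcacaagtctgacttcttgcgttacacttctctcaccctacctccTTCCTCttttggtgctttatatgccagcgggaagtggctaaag

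The Mertk window, at chr2:128698665-128698914 on the plus strand, was 63.6% G or C and held 3 GC boxes, the nearest starting 99 bases before the start, with no PU.1 core. That of Axl, at chr7:25788734-25788983 on the minus strand, was 60.0% G or C and held 1 GC box 10 bases and 1 PU.1 core 130 bases before the start. The Cd300lf window, at chr11:115133993-115134242 on the minus strand, was 50.0% G or C and held no GC box and 1 PU.1 core 43 bases before the start. Among 32851 RefSeq promoter windows of this length, 32.7% held the GC box, 23.3% held the PU.1 core, and the median content of G or C was 52.4%. These letters are a description of the windows and not of factor binding.

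All 9 are protein-coding genes. In the GENCODE M21 annotation (GRCm38) Mertk spans chr2:128698956-128802894 and Tyro3 chr2:119797733-119818104, both on the plus strand, and Axl spans chr7:25757273-25788705 on the minus strand. The ligand genes lie at chr8:13465374-13494490 (Gas6, minus), chr16:62854307-62929346 (Pros1, plus) and chr7:79133768-79149060 (Mfge8, minus). Lrp1 lies at chr10:127538161-127621148 and Cd300lf at chr11:115116214-115133992, both on the minus strand, and Elmo1 at chr13:20090596-20608353 on the plus strand.

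Before the comparisons, the libraries were checked against their labels. C5ar1, the deleted receptor gene, was at 86.51, 37.32 and 16.18 TPM in WT TAM 1, 2 and 3 and at 0.38, 0.11 and 0.05 TPM in C5aR-/- TAM 1, 2 and 3. Adgre1, the gene for F4/80, ranged over 4.51-fold among WT TAMs and 3.26-fold among C5aR-/- TAMs. Libraries therefore differed widely within a group in the gene used for sorting. Summed TPM of 10 macrophage genes was 2079 to 7930 in WT and 1835 to 7218 in C5aR-/- TAMs. Summed TPM of 8 epithelial or tumor markers was 1882 to 2079 and 1807 to 2315, so transcripts of cells that a CD45+F4/80+ gate would not retain were present in every library. Within that list Krt8 (455 to 465 against 624 to 758 TPM) and Cldn3 (38.45 to 48.6 against 102 to 138 TPM) were higher in every C5aR-/- library than in every WT library. The other genes of the list overlapped between the groups. Of these Krt18 was higher in C5aR-/- TAMs in the mean, and Krt7, Krt19, Epcam, Cdh1 and Cldn4 were lower. Summed TPM of 7 mesothelial markers was lower in every C5aR-/- library (776 to 1105) than in every WT library (1210 to 1596), with Msln the only gene of the list that was higher, and that of 5 neutrophil markers was 583 to 2094 in WT and 23.2 to 327 in C5aR-/- TAMs. Ly6g, the neutrophil gene used to gate cells out, was at 0.62, 4.94 and 0.92 TPM in WT TAMs and at 0, 0.56 and 0 TPM in C5aR-/- TAMs. Itgam and Ptprc, encoding CD11b and CD45, were detected in all 6 libraries. In these bulk samples fewer cells of a type and less RNA per cell cannot be told apart. How far these other cells contribute to the member transcripts was not tested.

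The receptor kinases come first. Mertk was at 23.47, 9.93 and 7.51 TPM in WT TAM 1, 2 and 3 and at 38.46, 17.58 and 10.4 TPM in C5aR-/- TAM 1, 2 and 3. The mean was 13.6 ± 8.60 TPM (SD, n = 3) against 22.1 ± 14.6 TPM (SD, n = 3). In both groups library 1 was the highest and library 3 the lowest, and the ranges overlapped. On the log2(TPM + 1) scale the difference, C5aR-/- minus WT, was 0.63 (SE 0.55, 95% interval -0.70 to 1.95, limma adjusted p = 0.648), less than the spread between libraries.

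Axl, the kinase typical of inflamed and tumor tissue, was far more abundant. It was at 201.46, 203.22 and 209.8 TPM in WT TAMs and at 239.91, 240.67 and 175.92 TPM in C5aR-/- TAMs. WT libraries were almost identical, and the C5aR-/- libraries lay on both sides of them. The log2 difference was 0.08 (SE 0.16, 95% interval -0.29 to 0.45, limma adjusted p = 0.85), so a 2-fold change in either direction lay outside the interval.

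Tyro3 was the kinase whose groups were apart. It was at 30.37, 27.41 and 39.63 TPM in WT TAMs and at 49.94, 40.91 and 44.42 TPM in C5aR-/- TAMs. Every C5aR-/- library was above every WT library, with means of 45.1 ± 4.55 and 32.5 ± 6.37 TPM (SD, n = 3 each). The log2 difference was 0.47 (SE 0.18, 95% interval 0.054 to 0.89), and it passed the threshold of 0.05 before but not after adjustment (limma adjusted p = 0.302). Leaving out 1 library at a time gave differences of 0.36 to 0.62, with adjusted p from 0.277 to 0.747 by limma. The unadjusted pass held in 10 of 14 alternatives and was lost without WT TAM 1, WT TAM 2, C5aR-/- TAM 1 or C5aR-/- TAM 3.

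Summed together, the 3 kinases summed to 241 to 257 TPM in WT and 231 to 328 TPM in C5aR-/- TAMs, with means of 251 ± 9.02 and 286 ± 50.1 TPM (two-sided exact permutation p = 0.4). Axl made up 78.9 to 84.5% of that sum in WT and 73.1 to 80.5% in C5aR-/- TAMs. Mertk made up 2.92 to 9.19% and 4.51 to 11.7%. Axl transcripts therefore outnumbered those of Mertk in all 6 libraries, by 8.58-, 20.5- and 27.9-fold in WT and 6.24-, 13.7- and 16.9-fold in C5aR-/- TAMs. The log2 difference of this ratio was -0.59 (two-sided exact permutation p = 0.4).

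The ligands of these kinases were lower in C5aR-/- TAMs in the mean, within the spread of the libraries. Gas6, which binds all 3 kinases, was at 218.45, 270.98 and 130.3 TPM in WT TAMs and at 186.21, 119.54 and 50.07 TPM in C5aR-/- TAMs. The highest C5aR-/- library was above the lowest WT library, so the groups overlapped. The means were 207 ± 71.1 and 119 ± 68.1 TPM (SD, n = 3 each), and the log2 difference was -0.92 (SE 0.50, 95% interval -2.11 to 0.27, limma adjusted p = 0.447). Gas6 was the member with the lowest difference, and it depended on single libraries: without C5aR-/- TAM 1 it was -1.34 (limma adjusted p = 0.161), and without C5aR-/- TAM 3 it was -0.40. C5aR-/- TAM 3, with the least Gas6, also had the lowest mesothelial (776 TPM), neutrophil (23.2 TPM), macrophage (1835 TPM) and epithelial or tumor (1807 TPM) sums. Its B cell (32.8 TPM), T cell (21.1 TPM) and dendritic cell (31.0 TPM) marker sums were the lowest as well. The part of these cells in the difference was not tested. A total of 34 bases, or 1.33% of the Gas6 exons, overlap Tmem255b on the opposite strand, and whether counting used strand was not given in the sources used here.

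Pros1, which encodes protein S and binds Tyro3 and Mertk, was the scarcest member. It was at 17.39, 7.04 and 4.34 TPM in WT TAMs and at 7.72, 7.25 and 2.68 TPM in C5aR-/- TAMs. WT TAM 1 stood above the rest, and without it the log2 difference of -0.53 (SE 0.54, limma adjusted p = 0.696) became -0.029. Gas6 was 92.6 to 97.5% of the summed Gas6 and Pros1 TPM in WT and 94.3 to 96.0% in C5aR-/- TAMs. The ratio of Gas6 to Pros1 was 12.6, 38.5 and 30.02 in WT and 24.1, 16.5 and 18.7 in C5aR-/- TAMs (two-sided exact permutation p = 0.6).

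Mfge8, the bridge to integrins, was at 94.4, 91.55 and 102.88 TPM in WT TAMs and at 217.68, 155.5 and 102.87 TPM in C5aR-/- TAMs. C5aR-/- TAM 1 and 2 were above every WT library, and C5aR-/- TAM 3 lay just below the highest WT library, which made this the only overlap. Mfge8 passed the threshold of 0.05 before but not after adjustment, and the unadjusted pass held in 6 of 14 alternatives. It was lost without the filter, with a replicate block, without the variance trend and without any single library other than C5aR-/- TAM 3. The means were 96.3 ± 5.89 and 159 ± 57.5 TPM (SD, n = 3 each). The log2 difference was 0.65 (SE 0.26, 95% interval 0.021 to 1.28, limma adjusted p = 0.333). Without C5aR-/- TAM 1 it was 0.39, and without C5aR-/- TAM 3 it was 0.93.

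Lrp1 was the most abundant member. It was at 286.45, 255.79 and 347.63 TPM in WT TAMs and at 251.91, 251.43 and 209.28 TPM in C5aR-/- TAMs. Every C5aR-/- library was below every WT library, although by only a few TPM at the closest pair. The means were 297 ± 46.8 and 238 ± 24.5 TPM (SD, n = 3 each), and the log2 difference was -0.31 (SE 0.16, 95% interval -0.70 to 0.071, limma adjusted p = 0.427). The mesothelial and neutrophil sums both separated the libraries in the same direction, and their part in the Lrp1 difference was not tested.

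Cd300lf, a receptor of the CD300 family restricted largely to myeloid cells, was at 22.59, 18.69 and 15.34 TPM in WT TAMs and at 36.42, 28.17 and 17.86 TPM in C5aR-/- TAMs. C5aR-/- TAM 3 fell within the WT range, and the log2 difference was 0.48 (SE 0.28, 95% interval -0.19 to 1.15, limma adjusted p = 0.482). Elmo1, the engulfment adaptor, was at 16.11, 14.74 and 12.33 TPM in WT TAMs and at 19.91, 13.48 and 10.23 TPM in C5aR-/- TAMs. The WT libraries all lay inside the range of the C5aR-/- libraries. Its log2 difference was -0.03 (SE 0.26, 95% interval -0.64 to 0.59, limma adjusted p = 0.973), and its sign changed under both other scalings. Of its exonic bases, 403 (3.2%) overlap the antisense gene Gm32036.

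**Figure D1:**
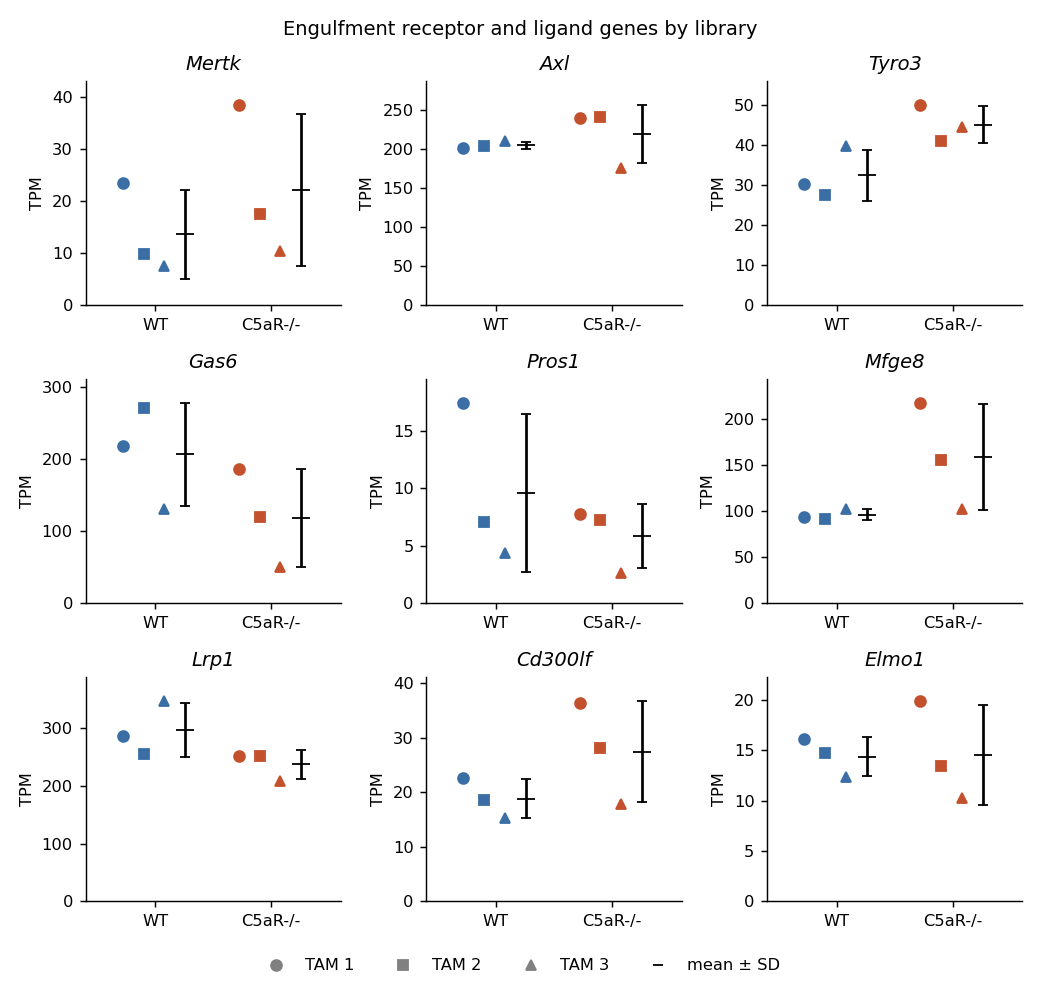
TPM (vertical axis, starting at 0) of the 9 genes in each library, WT in blue and C5aR-/- in red, with the marker shape giving the library number and the black bar giving the mean ± SD of 3 libraries. Tyro3 libraries of C5aR-/- TAMs (40.91 to 49.94 TPM) all sit above the WT libraries (27.41 to 39.63 TPM), those of Lrp1 all sit below, and the other 7 genes overlap.

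Across the 14776 genes tested (1 TPM or more in 3 or more libraries), none passed an adjusted threshold of 0.05 with a 2-fold change by limma (0%), and the smallest adjusted p was 0.0666. Before adjustment 733 genes passed the threshold of 0.05 with a 2-fold change (4.96%), 314 higher (2.13%) and 419 lower (2.84%) in C5aR-/- TAMs. Of the 9 members, 0 passed either threshold. At the unadjusted threshold whatever the fold change, Tyro3 and Mfge8 passed, 2 of 9, against 14.4% of all genes. Groups did not overlap for 2 of the 9 (22.2%), against 21.3% of all genes, with 8.84% of all genes higher and 12.5% lower. The members' shares were thus close to those of all genes. Of the members, 5 had a positive and 4 a negative difference, with a median of 0.08 beside -0.048 for all genes.

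**Figure D2:**
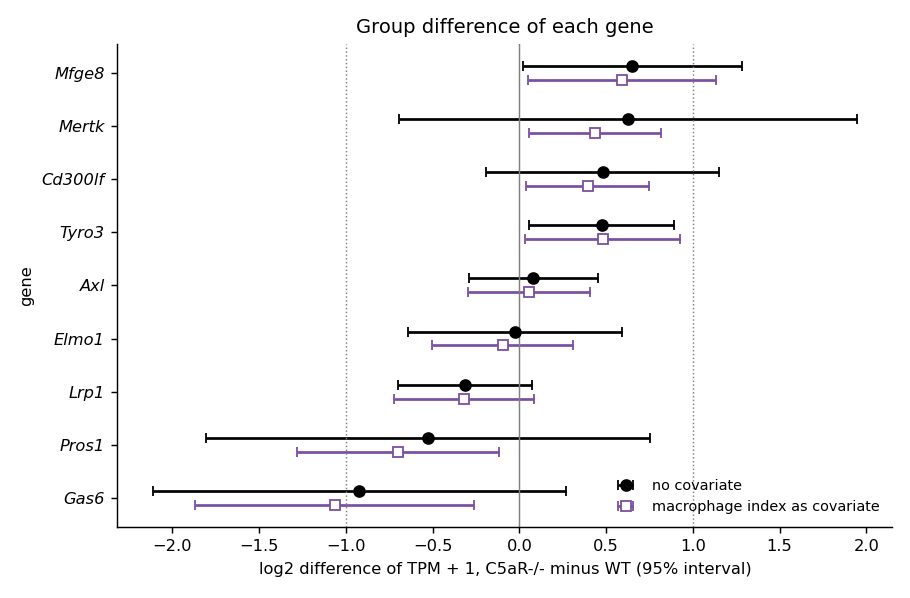
Log2 difference of TPM + 1, C5aR-/- minus WT (horizontal axis), with 95% intervals, for each gene in the plain comparison (black) and with the macrophage index as a covariate (purple); dotted lines mark a 2-fold change. Black intervals leave 0 outside for Tyro3 (0.054 to 0.89) and Mfge8 (0.021 to 1.28), and the intervals of Mertk, Gas6 and Pros1 are much narrower in purple.

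The levels were ordered, by mean TPM over the 6 libraries, Lrp1 (267), Axl (212), Gas6 (163), Mfge8 (127), Tyro3 (38.8), Cd300lf (23.2), Mertk (17.9), Elmo1 (14.5) and Pros1 (7.74). Only the step from Mfge8 to Tyro3 separated neighbours whose ranges over the libraries did not overlap. Lrp1 nevertheless exceeded Axl in 6 of 6 libraries and Tyro3 exceeded Cd300lf in 6 of 6. Gas6 exceeded Mfge8 in all 3 WT libraries and in 0 of 3 C5aR-/- libraries. The order of a pair of bridging ligands therefore differed between the groups, chosen here after the values were seen and not tested.

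Members differed in how much they varied among libraries of the same group. Mertk ranged over 3.13-fold in WT and 3.70-fold in C5aR-/- TAMs and Pros1 over 4.01- and 2.88-fold, whereas Axl ranged over 1.04- and 1.37-fold. Among WT libraries, 94.9% of tested genes had a smaller log2 range than Mertk, 96.3% a smaller one than Pros1, and 2.21% a smaller one than Axl. Of the members, 4 ordered the libraries as Adgre1 did in both groups (Mertk, Pros1, Cd300lf and Elmo1), as did 8 of 10 macrophage genes, counting Adgre1 itself, and 6.83% of all genes. Axl, Lrp1, Tyro3, Gas6 and Mfge8 did not. Which cells these transcripts came from was not tested.

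**Figure D3:**
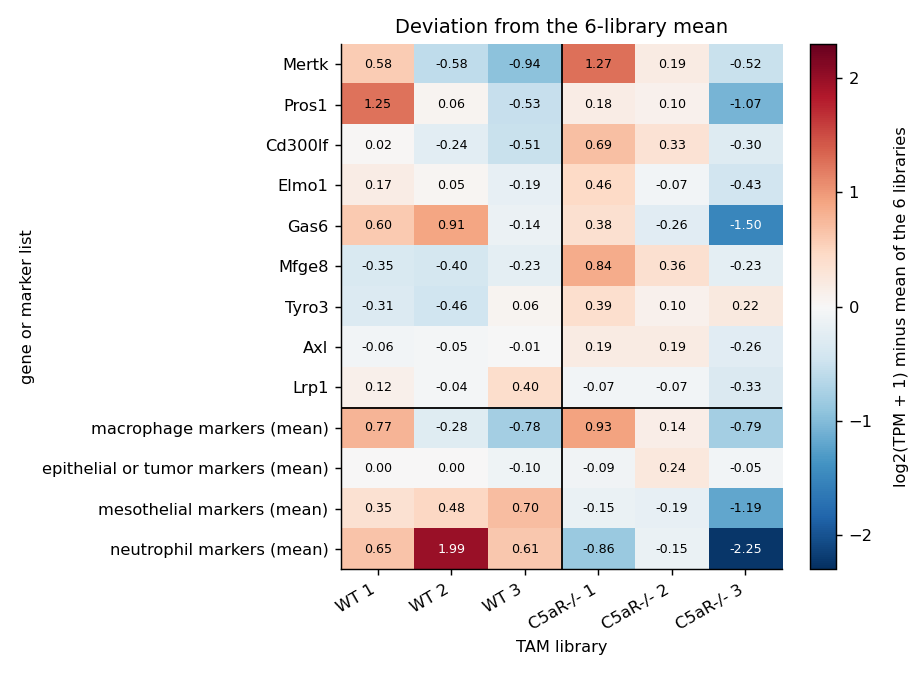
Deviation of log2(TPM + 1) from the mean of the 6 libraries (colour and printed value) for the 9 genes and for the mean of 4 marker lists (rows) in each TAM library (columns). In both groups Mertk is highest where the macrophage markers are highest, in library 1, and lowest in library 3, while Axl stays near 0 in the WT libraries.

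Because the libraries differed in macrophage transcripts, the comparison was repeated with the mean log2(TPM + 1) of the 10 macrophage genes as a covariate. This index was 7.89, 6.84 and 6.34 in WT and 8.05, 7.26 and 6.33 in C5aR-/- TAMs. With it, the Mertk difference was 0.43 (SE 0.154, limma adjusted p = 0.213), the Gas6 difference was -1.06 (SE 0.326, limma adjusted p = 0.171) and the Pros1 difference was -0.70 (SE 0.237, limma adjusted p = 0.198). The standard errors of these members shrank, and 6 of 9 members passed the unadjusted threshold against 19.7% of all genes, the other 3 being Tyro3, Mfge8 and Cd300lf. Gas6 alone also passed a 2-fold change, as did 6.17% of all genes. None of the 9 passed after adjustment (lowest limma adjusted p = 0.171).

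Mertk was next related to single macrophage genes. Its ratio to Adgre1 was 0.205, 0.217 and 0.296 in WT and 0.422, 0.439 and 0.372 in C5aR-/- TAMs. The groups did not overlap, and the ratio was 1.74-fold higher in C5aR-/- TAMs, a log2 difference of 0.79 (two-sided exact permutation p = 0.1, the smallest that 3 against 3 allows). The choice of denominator mattered. Over the 10 macrophage genes the log2 difference ran from -0.21 to 1.32 with a median of 0.56, and 8 were above 0. Groups were apart and higher in C5aR-/- TAMs for 5 denominators (Adgre1, Itgam, Lyz2, Tyrobp and Laptm5), apart and lower for Cd68 (-0.17), and overlapping for 4 (Ptprc, Csf1r, Cd14 and Fcgr1). The other 9 denominators were added after the ratio to Adgre1 had been seen.

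**Figure D4:**
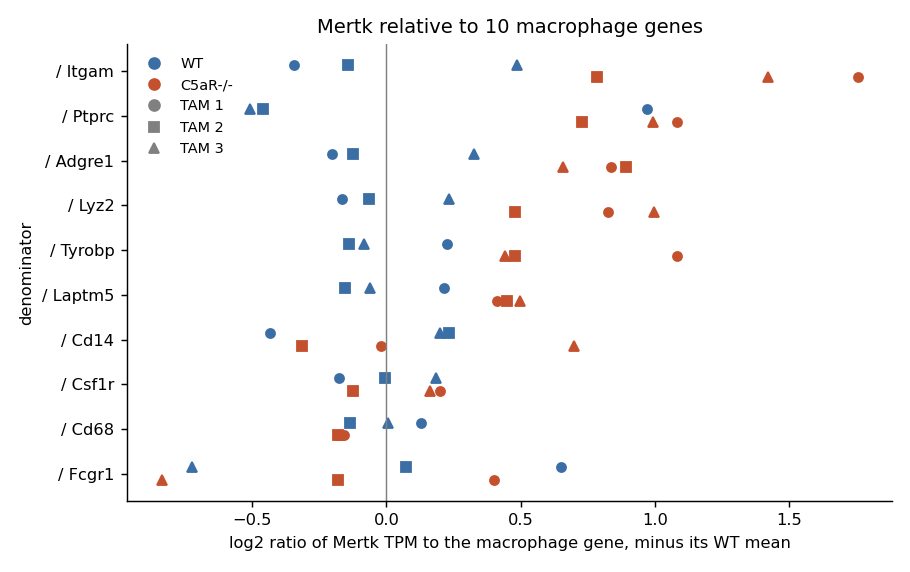
Log2 ratio of Mertk TPM to each of 10 macrophage genes, minus the WT mean of that ratio (horizontal axis), for every library, WT in blue and C5aR-/- in red, with the marker shape giving the library number. C5aR-/- libraries lie to the right of all WT libraries for 5 denominators, and to the left of them for Cd68.

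The members were then set beside 75 other engulfment genes, of which 70 were tested; Havcr1, Adgrb1, Stab2, Megf10 and Edil3 were below the filter. Of the 70, 44 had a positive and 26 a negative difference (median 0.138). Of all 14776 genes tested, 6570 had a positive and 8206 a negative difference (median -0.048). With the macrophage index as covariate the median of the 70 was 0.054. None passed after adjustment, 4 passed the unadjusted threshold with a 2-fold change (5.71%, beside 4.96% of all genes), and the groups did not overlap for 14 (20.0%, beside 21.3%). The count of 4 became 2 without WT TAM 2 or without WT TAM 3, and 6 without C5aR-/- TAM 3. Cx3cr1 and Pparg passed in every alternative that tested them, and Trem2 and Timd4 each in 9 of 14.

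Among the other receptors, Trem2, a lipid receptor of phagocytes, was at 69.08, 38.18 and 21.43 TPM in WT TAMs and at 189.29, 104.1 and 54.54 TPM in C5aR-/- TAMs. Its log2 difference was 1.39 (SE 0.550, limma adjusted p = 0.326), the groups overlapped, and it followed the macrophage genes from library to library. With the macrophage index as covariate it was 1.20 (SE 0.128, limma adjusted p = 0.0439). Trem2 alone of the 70 passed the adjusted threshold with a 2-fold change in that fit, beside 46 of all 14776 genes. It passed in no other alternative, the next lowest limma adjusted p being 0.105 with a replicate block. Timd4, the phosphatidylserine receptor TIM-4 of resident macrophages, was at 28.39, 13.53 and 13.16 TPM in WT TAMs and at 11.03, 7.18 and 1.77 TPM in C5aR-/- TAMs. Every C5aR-/- library was below every WT library, with a log2 difference of -1.49 (SE 0.578, limma adjusted p = 0.318). Large peritoneal macrophages are the resident cells known to carry TIM-4. Of 8 markers of them, 7 had a negative log2 difference (median of the 8 -1.49), as did 8206 of all 14776 genes. The 7 included Gata6 (-0.16) and Fcna (-0.078), and Vsig4 was higher (0.70). Groups were apart for Icam2 alone, 1 of the 8 (12.5%), beside 21.3% of all genes. Summed TPM of the 8 overlapped, at 228 to 1192 in WT and 141 to 755 in C5aR-/- TAMs. The part of these cells in the Timd4 difference was not tested. Of the 14 tested genes in this role 11 had a positive and 3 a negative difference, beside 6570 of all 14776 genes with a positive one. At the unadjusted threshold whatever the fold change, 5 of the 14 passed, against 14.4% of all genes. They were Trem2, Timd4, Itgb5, Itgb3 and Havcr2.

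Cx3cr1, the receptor for the find-me signal fractalkine, was at 8.08, 5.0 and 7.83 TPM in WT TAMs and at 40.66, 21.67 and 14.15 TPM in C5aR-/- TAMs. The groups did not overlap, and the log2 difference was 1.63 (SE 0.387, limma adjusted p = 0.162). Pparg, a lipid-sensing nuclear receptor, was at 2.02, 2.54 and 1.18 TPM in WT TAMs and at 5.0, 4.81 and 13.41 TPM in C5aR-/- TAMs. Again no library overlapped (log2 difference 1.48, SE 0.410, limma adjusted p = 0.207), and the highest value came from the library lowest in macrophage genes. All 8 lipid-sensing and cholesterol export genes tested had a positive difference (median 0.329), as did 6570 of all 14776 genes. The differences went down to 0.025 for Nr1h3, and Pparg alone of the 8 passed the unadjusted threshold. The lowest adjusted p of the 70 belonged to Itgb5, an integrin chain through which Mfge8 is bound, named here after its values were seen. It was at 67.34, 61.72 and 81.24 TPM in WT TAMs and at 116.24, 139.51 and 119.91 TPM in C5aR-/- TAMs (log2 difference 0.83, SE 0.150, limma adjusted p = 0.0986).

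In the other roles no gene passed the unadjusted threshold with a 2-fold change, and the most abundant gene of each was as follows. Calr, the calreticulin recognised by Lrp1, had a mean of 915 ± 226 TPM in WT and 1178 ± 601 TPM in C5aR-/- TAMs, with overlapping groups. Rac1, the GTPase downstream of Elmo1, had means of 280 ± 25.6 and 289 ± 32.4 TPM, and Cd47, the do-not-eat-me signal, had means of 112 ± 11.4 and 120 ± 19.7 TPM. Neither differed by more than its spread. Cyba, a subunit of the NADPH oxidase used in LC3-associated phagocytosis, had means of 167 ± 71.4 and 192 ± 102 TPM. Socs3, an inhibitor of cytokine signalling induced by the receptor kinases, had means of 267 ± 155 and 152 ± 72.8 TPM, and the scramblase gene Ano6 had means of 151 ± 7.62 and 141 ± 54.2 TPM (SD, n = 3 each throughout). All 6 of these overlapped between groups, and limma adjusted p ran from 0.555 for Socs3 to 0.915 for Rac1. In the same roles 3 less abundant genes passed the threshold of 0.05 before adjustment without a 2-fold change. They were named after their values were seen, and their groups were apart. They were 1 of 6 tested bridging or opsonizing genes, 1 of 13 cytoskeletal genes and 1 of 9 genes of LC3-associated phagocytosis. At that threshold whatever the fold change, 10 of the 70 engulfment genes passed, against 14.4% of all genes. Becn1, which encodes the autophagy protein Beclin 1, was at 96.65, 97.41 and 100.08 TPM in WT TAMs and at 68.65, 69.82 and 71.09 TPM in C5aR-/- TAMs (log2 difference -0.48, SE 0.106, limma adjusted p = 0.14). Anxa1, the phospholipid-binding annexin A1, was at 591.35, 423.78 and 527.02 TPM in WT TAMs and at 837.7, 848.35 and 641.79 TPM in C5aR-/- TAMs (log2 difference 0.595, SE 0.190, limma adjusted p = 0.246). Ptk2, the focal adhesion kinase, was at 72.7, 65.35 and 58.6 TPM in WT TAMs and at 94.47, 81.85 and 124.24 TPM in C5aR-/- TAMs (log2 difference 0.59, SE 0.184, limma adjusted p = 0.239). Every C5aR-/- library was below every WT library for Becn1 and above for Anxa1 and Ptk2. All 5 phosphatidylserine exposure genes had a negative difference (median -0.274), none past the threshold, beside 8206 of all 14776 genes with a negative difference.

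**Figure D5:**
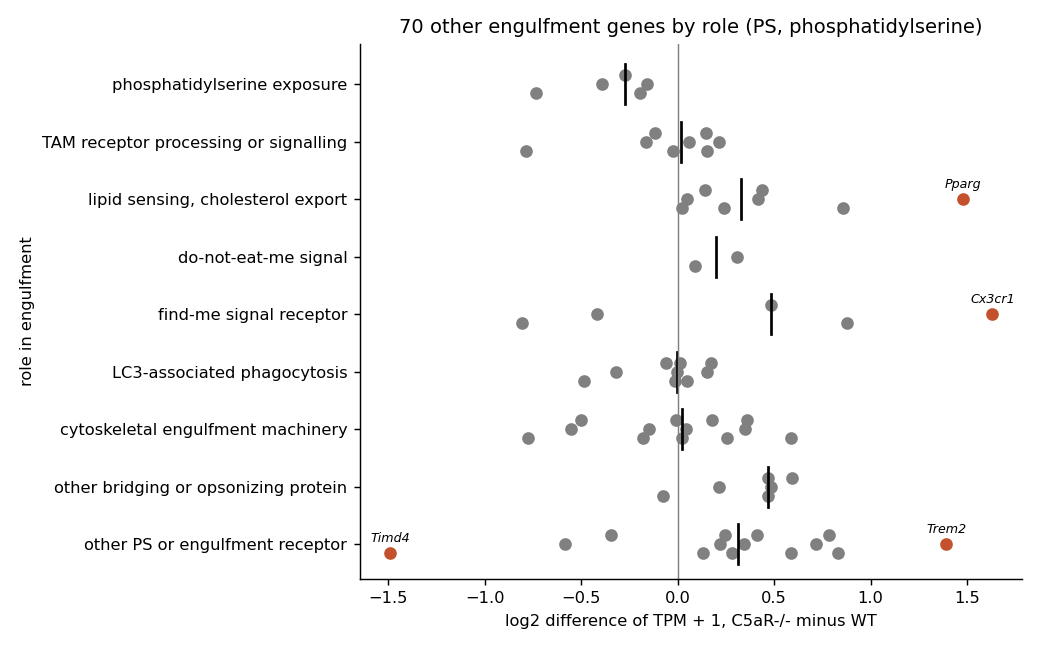
Log2 difference of TPM + 1, C5aR-/- minus WT (horizontal axis), of 70 other engulfment genes grouped by role (vertical axis), 1 point a gene, with a black line at the median of each role. The 4 red, named genes passed the unadjusted threshold with a 2-fold change: Trem2, Cx3cr1 and Pparg were higher and Timd4 lower in C5aR-/- TAMs.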

How the data were processed

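RNA of sorted TAMs was sequenced in 6 libraries, 3 WT and 3 C5aR-/-. The deposited table gives TPM values per gene, which the authors made from reads; the submitters' processing notes name fastp, HISAT2, StringTie, RSEM and DESeq2 and the build mm10, without versions, and the annotation release is not given in the sources used here. Read depth cannot be read from TPM, so no counting interval was given. The 2 columns of group means, equal to the mean of the 3 libraries, were not used. Of 56980 gene IDs, 52073 matched a symbol.

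Genes reaching 1 TPM in 3 or more libraries were tested on log2(TPM + 1) with limma 3.58.1 (R 4.3.3, eBayes with trend), with Benjamini-Hochberg adjustment over all genes tested; this scale understates the change of low genes. The threshold was 0.05 with a 2-fold change, before and after adjustment. Ratios and sums were compared by two-sided exact permutation tests. The tests were tried on simulated data. The members and lists were chosen with earlier results of these data known. Genes of the wider list were named where they passed the unadjusted threshold with a 2-fold change, otherwise the most abundant of each role. Promoter windows came from RefSeq.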

Additional observations from a re-analysis of the deposited data

How the results depend on the processing

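Over 14 alternatives (pseudocount, filter, scaling, replicate block, variance trend, macrophage covariate and each library left out), 8 of 9 members kept their direction; Elmo1 did so in 9, with 0.0032 under quantile normalization, 0.021 under median-of-ratios scaling and -0.26 to 0.18 with 1 library left out. Leaving out 1 library gave 0.15 to 1.07 for Mertk and -0.92 to -0.029 for Pros1, and the median of the wider list became -0.046 without C5aR-/- TAM 1. No member passed the adjusted threshold under any alternative.

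Genes passing the adjusted threshold numbered 2 without the variance trend, 46 with the covariate and 0 to 356 with 1 library left out (356 without C5aR-/- TAM 1). Those passing the unadjusted one numbered 475 with TPM of at least 5 and 567 to 1266 with 1 library left out (1266 without C5aR-/- TAM 1). Of the 733, 42.8% were higher in C5aR-/- TAMs, against 51.0% under quantile normalization, which moved the median of all genes from -0.048 to -0.0039. Members passing the unadjusted threshold with a 2-fold change numbered 1 with the covariate (Gas6) and 0 to 1 with 1 library left out. All counts of genes in this paragraph include that fold change. Wider genes passing numbered 1 after adjustment with the covariate and, before adjustment, 2 to 6 with 1 library left out. The log2 group difference of the ratio of Mertk to Adgre1 changed sign with Cd68 (-0.17) or Fcgr1 (-0.21) as denominator, chosen after seeing the data. With Adgre1 this difference ranged from 0.69 to 0.96 with 1 library left out. The log2 group difference of the ratio of Gas6 to Pros1 ranged from -0.80 to 0.0069 with 1 library left out, the highest without WT TAM 2.

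Of the 16 wider genes named and tested, 11 kept their direction in every alternative that tested them (13 for Pparg, which was not tested with TPM of at least 5). With 1 library left out the difference ran from -0.091 to 0.76 for Calr, -0.033 to 0.14 for Rac1, -0.25 to 0.52 for Cyba (-0.0048 with the covariate), -0.041 to 0.17 for Cd47 and -0.45 to 0.042 for Ano6. The causes were not tested.

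Libraries of the same number correlated in their deviations at 0.19, -0.011 and 0.27, and those of different numbers at -0.23 to 0.093. The highest values, 0.27 and 0.19, were thus between libraries of the same number. That of the libraries numbered 2 (-0.011) was below the highest of different numbers (0.093). Whether the numbers pair the samples cannot be told from these values, and the main comparison did not pair them. With a replicate block, 0 genes passed after and 811 before adjustment, each with a 2-fold change. With that fold change 0 members passed. Without it, 4 members (Mertk, Tyro3, Gas6 and Cd300lf, and no longer Mfge8) passed the unadjusted threshold. The share of all genes that did so in this fit is not given here, so the 4 cannot be set against it. The lowest limma adjusted p of a member was 0.224. The block gave the same log2 differences of the ratios, with permutation p = 0.25 for Mertk to Adgre1. TPM hold no read counts, so depth could not be weighed.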

Other observations

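Genes whose profile over the 6 libraries was closest to a member, by root mean square distance of centred log2(TPM + 1), are given here. For Mertk they were Slc11a1 (0.103), Cd68 (0.123) and C1qa (0.129), which encode a phagosomal metal transporter, a lysosomal macrophage glycoprotein and a complement chain. Cd68, at 211.07, 107.37 and 73.54 TPM in WT and 422.44, 196.14 and 115.22 TPM in C5aR-/- TAMs, showed the same library order as Mertk. The closest genes to Axl were Dag1 (0.0368), Mthfsl (0.0413) and Tmem192 (0.0526), and Dag1, the dystroglycan gene, was at 83.61 to 83.76 TPM in all WT libraries. Those closest to Tyro3 were Plpp2 (0.0514), Havcr2 (0.0855) and Lpar6 (0.0861). Havcr2, encoding the phosphatidylserine receptor TIM-3, was at 6.0, 5.18 and 7.11 TPM in WT and 10.14, 8.9 and 9.84 TPM in C5aR-/- TAMs.

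For Gas6 the closest were Plac8 (0.149), Nfkbid (0.174) and Lpl (0.182), and for Pros1 Dapk1 (0.131), Trem1 (0.164) and Socs3 (0.18). For Mfge8 they were Cttnbp2nl (0.0925), Mfsd11 (0.1) and Gm37601 (0.109), and for Lrp1 Vps13d (0.0539), Pde6d (0.0542) and Hint3 (0.0573). Cd300lf was closest to Gm8818 (0.0606), Sowahc (0.0706) and Tmem189 (0.087), and Elmo1 to Stard9 (0.0337), Mfsd1 (0.041) and Il20rb (0.0503). With 6 libraries and 14776 genes, small distances are frequent, and these are descriptions without a test.

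Stab2, a scavenger receptor that binds phosphatidylserine, was at 0.02, 0 and 0.02 TPM in WT TAMs and at 1.69, 3.84 and 0.89 TPM in C5aR-/- TAMs. It reached 1 TPM in fewer than 3 libraries and so was not tested. It was named after its values were seen.

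Of 6 mast cell markers, 5 were lower and Kit was higher in every C5aR-/- library than in every WT library. Among all genes tested, 12.5% were lower and 8.84% higher in this way. Summed TPM of the 6 markers was 84.6 to 140 in WT and 59.6 to 87.8 in C5aR-/- TAMs. Most of the sum in C5aR-/- TAM 1, 2 and 3 was Kit, at 54.65, 67.99 and 85.38 TPM. The 5 lower genes had means of 2.85 to 24.6 TPM in WT and 0.05 to 2.99 TPM in C5aR-/- TAMs. Summed TPM of the other lists overlapped between groups: 25.0 to 85.8 in WT and 21.1 to 54.0 in C5aR-/- TAMs for T cells, 7.45 to 31.9 and 9.26 to 15.5 for NK cells, 84.3 to 496 and 32.8 to 443 for B cells, 41.8 to 51.4 and 31.0 to 88.5 for dendritic cells, 405 to 606 and 439 to 557 for fibroblasts and 6.43 to 8.62 and 5.03 to 16.3 for endothelial cells. Erythroid genes were at 208 to 3901 and 210 to 16183, the highest in C5aR-/- TAM 1.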
